A study of Homo sapiens with 3 samples.

Results

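The genes described here belong to the TGF-β, activin and YAP responses. They are 9 of the 43913 gene symbols in the deposited counts, listed by symbol: INHBA, TGFB1, TGFB2, TGFBI, TGFBR2, SERPINE2, THBS1, CTGF and CYR61. The rule itself uses no measured value, but the genes were chosen with earlier results of these data known. All 9 symbols were found. The study counted RNA in single cells by Drop-seq, in which a droplet holds 1 cell and 1 barcoded bead and each RNA molecule is counted by a unique molecular identifier (UMI). There were 3 libraries and 1 library per condition, namely HS-5 in monoculture, MM.1S in monoculture, and both lines mixed for 4 h. HS-5 is an immortalised line of human bone marrow stromal cells, MM.1S is a line of human multiple myeloma cells, and per the labels no library received a treatment. Each cell type is thus 1 established line. The question put to the 9 genes was how their levels differed between HS-5 cells alone and HS-5 cells beside myeloma cells.

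TGF-β is a dimeric cytokine that stromal cells secrete bound to a latency peptide and store in the matrix. Once released, it brings together type II and type I receptors, which phosphorylate SMAD2 and SMAD3. Activin A, a dimer of the protein made from INHBA, signals through its own receptors to the same SMAD proteins. YAP and its relative TAZ are co-activators that enter the nucleus when the Hippo kinases are inactive, as in spread cells on a stiff surface, and drive genes through TEAD transcription factors. CTGF, CYR61 and THBS1 encode matrix-associated proteins and respond to both routes in many stromal cells. In bone marrow, both pathways are known for their part in matrix production and, for activin A and TGF-β, in the bone loss that accompanies myeloma.

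CTGF and THBS1 are shown by their promoter sequence because, among the 9 genes, CTGF was the one past the limit in HS-5 cells and THBS1 is a further target whose window holds letters of both pathways. The windows come from RefSeq (GRCh38.p14) and run from 250 bases before to 50 bases after the annotated start. A window was found for 8 of the 9 genes, all but CYR61, and those 8 had 10 windows. Capitals mark the TEAD motif GGAATG and the SMAD motif CAGAC.
CTGF (chr6:131951323-131951622, minus strand): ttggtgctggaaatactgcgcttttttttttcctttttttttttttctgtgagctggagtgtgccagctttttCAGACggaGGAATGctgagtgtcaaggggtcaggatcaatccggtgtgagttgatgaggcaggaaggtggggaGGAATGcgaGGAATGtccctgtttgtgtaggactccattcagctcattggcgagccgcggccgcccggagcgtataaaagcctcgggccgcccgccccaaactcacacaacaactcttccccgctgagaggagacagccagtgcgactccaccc
THBS1 (chr15:39580829-39581128, plus strand): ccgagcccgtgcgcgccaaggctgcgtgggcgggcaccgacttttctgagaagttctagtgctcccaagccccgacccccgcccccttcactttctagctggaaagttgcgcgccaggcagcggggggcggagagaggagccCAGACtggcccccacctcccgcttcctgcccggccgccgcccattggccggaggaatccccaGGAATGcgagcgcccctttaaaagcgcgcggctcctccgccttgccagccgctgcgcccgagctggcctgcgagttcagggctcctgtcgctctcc

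The CTGF window held 3 TEAD motifs, which began at -169, -104 and -95 from the annotated start, and 1 SMAD motif at -177. Of 35116 RefSeq windows of this length, searched on both strands, 14.0% held at least 1 TEAD motif and 0.128% held at least 3. The THBS1 window held 1 TEAD motif at -46 and 1 SMAD motif at -108. SMAD motifs are short, and 45.3% of all windows held one. Fewer matches were found for most of the other 6 genes with a window. The TGFB2 window held 1 TEAD and 2 SMAD motifs and the INHBA window 1 SMAD motif. Neither motif occurred in the windows of TGFB1, TGFBI, TGFBR2 and SERPINE2. The AP-1 motif TGANTCA, present in 7.71% of all windows, was found once, in 1 of the 2 TGFBR2 windows. A match to the NF-κB consensus, present in 5.91% of all windows, was found once, in the CTGF window at -95, where it overlapped a TEAD motif. No window of the 8 genes that had one held a CArG box, which 1.29% of all windows held, and CYR61 was not searched. These matches are a description of letters, and binding was not measured.

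Cells needed 200 or more detected genes to be used. The cells of the mixed library were assigned to a line by genes that were 50-fold higher in one monoculture than in the other, and none of the 9 genes nor any other gene listed here was used for that. This gave 3732 HS-5 cells grown alone and 2100 from the coculture, with medians of 971.5 and 956.5 UMIs per cell, and 3947 and 1635 MM.1S cells, with medians of 2201 and 670. A further 119 mixed cells were left out as doublets and 2 had no line-specific UMI. Between 45 and 82 barcodes of a library also occurred in another library. HS-5 cells of either culture had 13 of 15 stromal markers above 10 CPM (UMIs per 1000000 UMIs of the same cells), such as VIM and COL1A1, and MM.1S cells had 10 of 12 plasma cell markers above that level, such as XBP1 and MZB1. SDC1, listed with the plasma cell markers, went against that use, with 135 CPM in HS-5 and 38.1 CPM in MM.1S grown alone. In MM.1S grown alone, 4 of the 15 stromal markers were above 10 CPM. FN1 had 810 CPM there and 252 CPM in HS-5 grown alone, and CAV1 had 457 and 356 CPM. VIM and LGALS1 were lower there, at 426 and 1847 CPM against 3859 and 3109 CPM. Cells with at least 2 UMIs of mitosis genes made up 67.3% of the HS-5 cells grown alone and 53.6% of those from the coculture.

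In monoculture, most of the 9 genes were stromal. Levels are in CPM over all cells of a line together, and the brackets hold 95% intervals that cover counting error only. Since each condition is a single library, differences could not be set against a spread between replicates and were not tested. A difference between the lines is counted where it is over 10-fold with a counting interval that excludes 1, for genes averaging 10 CPM or more over both groups. This limit was passed in favour of HS-5 by 7 of the 8 genes that could be counted, and by 9.26% of all 8734 genes. In favour of MM.1S it was passed by none of the 8 and by 3.38% of all genes. INHBA had 1205 CPM in HS-5 and 3.45 CPM in MM.1S, a ratio of 349 (252 to 499). CTGF had 311 CPM in HS-5 and only 3 UMIs in MM.1S, a ratio of 1081 (369 to 5246).

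The 2 genes with a clear MM.1S level were SERPINE2 and TGFB1. SERPINE2, a secreted protease inhibitor also called protease nexin, had 876 CPM in HS-5 and 36.0 CPM in MM.1S, a ratio of 24.3 (21.9 to 27.1). TGFB1 had 19.5 CPM in HS-5 and 6.81 CPM in MM.1S, a ratio of 2.87 (2.12 to 3.91), which did not pass the 10-fold limit. For the remaining genes the ratios were 629 for CYR61, 446 for TGFBI, 395 for THBS1 and 55.2 for TGFBR2. TGFB2 was near the limit of detection in both lines, with 11 UMIs in HS-5 and 13 in MM.1S.

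**Figure D1:**
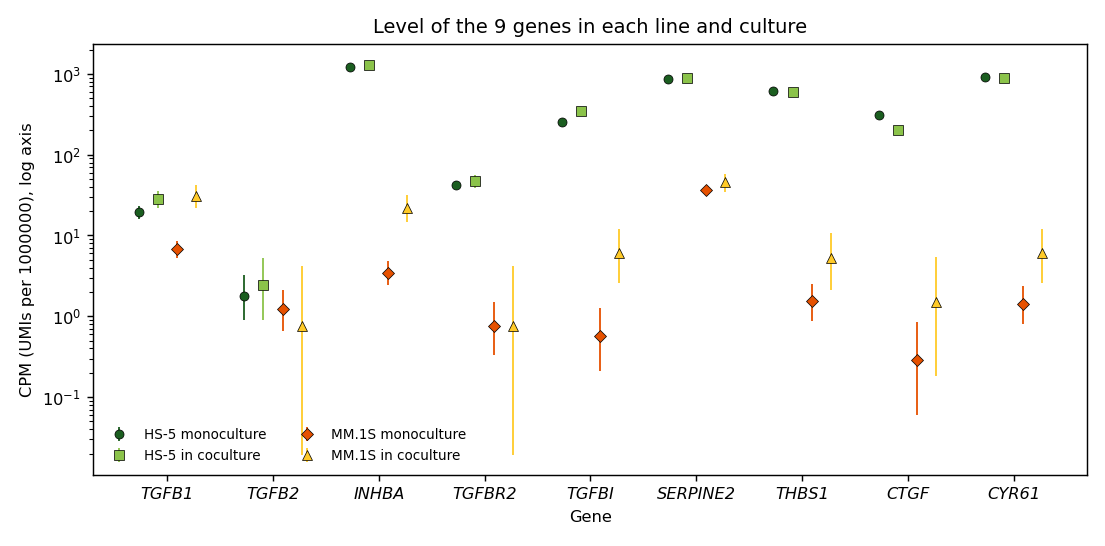
Levels of the 9 genes in the 4 groups of cells, in CPM on a log axis, with bars for the 95% exact Poisson interval and 1 library per group. The HS-5 points of INHBA, TGFBR2, TGFBI, SERPINE2, THBS1, CTGF and CYR61 lie far above the MM.1S points, and those of CTGF are the only HS-5 pair in which the coculture lies clearly below, at 200 against 311 CPM.

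In HS-5 cells the coculture differed little from the monoculture for most of the 9 genes, and CTGF was the only one counted as changed. A change was counted where the ratio with a pseudocount of 1 CPM was over 1.5-fold and the counting interval excludes 1. This was done for genes averaging 10 CPM or more. Ratios not given as log2 have no pseudocount. CTGF was the 1 gene of the 8 that could be counted to pass this limit downward, against 9.66% of all 8809 genes. A single gene of 8 is near that share. None of the 8 passed it upward, against 7.78% of all genes. One member, TGFB2, was too low to be counted. The median log2 ratio of coculture over monoculture, taken with a pseudocount of 1 CPM, was 0.05 over the 8 genes and -0.03 over all genes. For 5 of the 8 the log2 ratio was within 0.20 of 0.

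Among the ligands, INHBA had 1205 CPM (1178 to 1233) in HS-5 monoculture and 1296 CPM (1251 to 1341) in coculture, a ratio of 1.08 (1.03 to 1.12). TGFB1 had 19.5 CPM from 120 UMIs and 27.9 CPM from 69 UMIs, a ratio of 1.43 (1.05 to 1.94). Among cells with at least 2 mitosis UMIs the TGFB1 level was 15.8 CPM (12.5 to 19.7) alone and 29.2 CPM (21.3 to 39.0) in coculture. Among the other cells it was 35.5 CPM (25.5 to 48.1) and 25.9 CPM (16.6 to 38.5), from 41 and 24 UMIs, so there the difference was within counting error. TGFB2 had 1.79 and 2.43 CPM, from 11 and 6 UMIs, and no change could be read at this depth.

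TGFBR2 encodes the type II receptor that binds TGF-β. It had 42.3 CPM (37.3 to 47.8) in HS-5 monoculture and 47.0 CPM (38.8 to 56.3) in coculture, a ratio of 1.11 (0.884 to 1.39), so the intervals overlapped.

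The TGF-β target genes TGFBI, SERPINE2 and THBS1 were not counted as changed. TGFBI, a secreted matrix protein named for its induction by TGF-β, had 257 CPM (244 to 270) alone and 347 CPM (325 to 371) in coculture. Its ratio of 1.35 (1.24 to 1.47) was beyond counting error but short of the 1.5-fold limit. That ratio was above 1 in cells with at least 2 mitosis UMIs and in the others, at log2 ratios of 0.40 and 0.33. SERPINE2 had 876 and 879 CPM, a ratio of 1.00 (0.954 to 1.06). THBS1, which encodes thrombospondin, an activator of latent TGF-β, had 606 and 595 CPM, a ratio of 0.981 (0.923 to 1.04). For SERPINE2 and THBS1 the counting intervals include 1.

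The YAP targets CTGF and CYR61, which encode related matricellular proteins (CCN2 and CCN1), parted. CTGF had 311 CPM (297 to 325, 1909 UMIs) in HS-5 monoculture and 200 CPM (182 to 218, 493 UMIs) in coculture, a ratio of 0.642 (0.581 to 0.710). CYR61 had 904 CPM (881 to 928) and 899 CPM (862 to 937), a ratio of 0.994 (0.946 to 1.04). Set against each other in the same cells, where no scaling to depth enters, there were 34.4 CTGF UMIs per 100 of CYR61 (32.6 to 36.2) in monoculture and 22.2 (20.1 to 24.5) in coculture. Against THBS1 there were 51.3 CTGF UMIs per 100 (48.5 to 54.2) and 33.6 (30.2 to 37.2).

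CTGF was lower in coculture in each subset of HS-5 cells examined. Its log2 ratio was -0.77 in cells with at least 2 mitosis UMIs and -0.51 in the others, -0.60 in cells of under 1000 UMIs and -0.65 in cells of at least 1000. The value in the cells with fewer mitosis UMIs does not reach 1.5-fold. The immediate early gene FOS, which serum and handling can induce, moved the same way, from 33.9 CPM (208 UMIs) to 3.24 CPM (8 UMIs). Of 11 immediate early genes that could be counted, FOS and KLF6 were lower, beside 9.66% of all genes, and none was higher, while JUN had a log2 ratio of -0.15. The log2 ratio was above 0 for 3 of the 11 and below 0 for 8. Among the abundant ones, IER3 and IER2 had the highest values, at 0.36 and 0.20, and KLF6 and DUSP1 the lowest, at -0.69 and -0.40. The part of mitosis and of handling in the CTGF difference was not tested.

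The share of cells with a CTGF UMI was also lower in coculture at even depth. With every cell thinned to 1000 UMIs, which left 1802 HS-5 cells of the monoculture and 996 of the coculture, 25.5% (23.5 to 27.6, exact Clopper-Pearson) and 15.0% (12.8 to 17.3) had a CTGF UMI. The CTGF intervals do not overlap. TGFBI went the other way, and its UMIs were found in 19.1% (17.3 to 21.0) and 24.7% (22 to 27.5).

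For INHBA the shares were 52.9% and 53.7%, for SERPINE2 47.1% and 45.5%, and for THBS1 37.4% and 34.9%. CYR61 UMIs were found in 56.4% (54.1 to 58.7) of monoculture cells and 51.4% (48.3 to 54.6) of coculture cells, although the mean CYR61 count at this depth was 0.938 and 0.927 UMIs per cell. The CYR61 counts were thus spread less evenly over the coculture cells, with a variance over mean of 1.25 in monoculture and 1.66 in coculture. Thinned to 500 UMIs, where more cells could be used, the CYR61 shares were 32.6% (31.1 to 34.2) of 3515 and 32.9% (30.8 to 35.2) of 1800 cells, so the lower share did not hold at that depth. TGFBR2 was seen in 4.88% and 4.82% of cells and TGFB1 in 2.16% and 2.61%. TGFB2 was seen in 2 of 1802 and in 0 of 996 cells, where 3 counts would make 0.301% and the exact interval reaches 0.370%. As a background, MM.1S cells of the coculture at the same depth had a UMI of TGFBI in 0.792% (0.164 to 2.30) and of CTGF in 0 of 379 cells, where 3 counts would make 0.792%. MM.1S cells grown alone had one of TGFBI in 0.0517% and of CTGF in 0.0258% of 3870 cells.

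**Figure D2:**
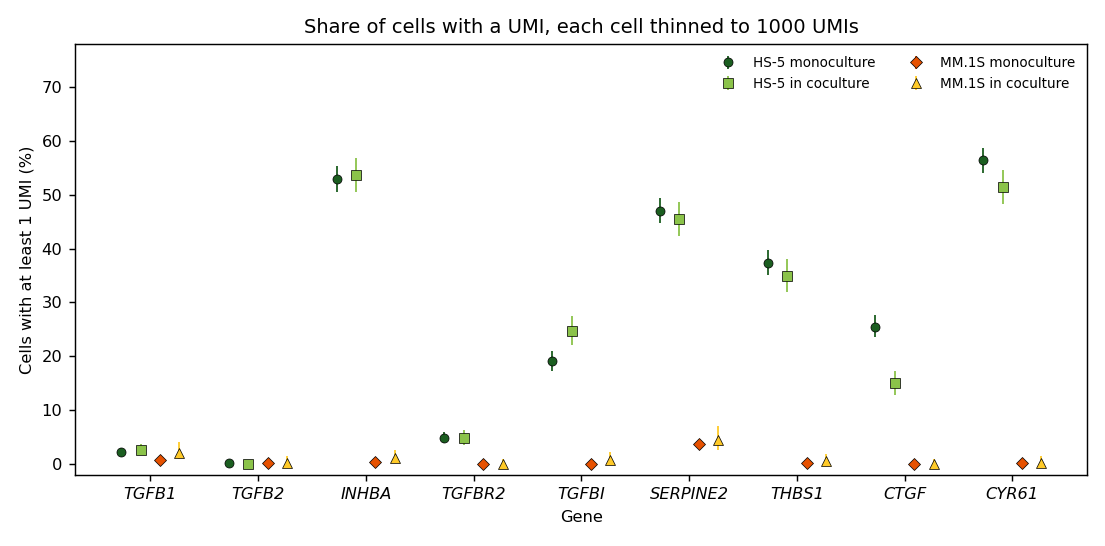
Percent of cells with at least 1 UMI of each of the 9 genes, with every cell thinned to 1000 UMIs and bars for the 95% exact Clopper-Pearson interval, in 1802, 996, 3870 and 379 cells of the 4 groups. In HS-5 cells the CTGF share was 25.5% alone and 15.0% in coculture, and the TGFBI share was 19.1% and 24.7%.

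INHBA counts were uneven from cell to cell, with a variance over mean of 3.17 in HS-5 monoculture and 3.03 in coculture and up to 24 UMIs in a thinned cell. The 6 genes above 100 CPM were only weakly related over cells. Over their 15 pairs the mean Pearson correlation of log counts was 0.07 in monoculture and 0.10 in coculture, from cells that share a library and a depth, and values of this size in sparse counts are given as a description only. Of 2011 genes above 100 CPM, TGFBI was the gene most like INHBA in monoculture (r of 0.15, and 0.18 in coculture), followed by CENPE and HMGB2. Those most like TGFBI were INHBA, THBS1 and SPARC, and those most like THBS1 were IL6, RCAN1 and TGFBI. For SERPINE2 they were WNT5A, COL1A2 and HSP90B1, for CTGF they were RCAN1, CYR61 and THBS1, and for CYR61 they were THBS1, COL1A2 and CTGF. The value for CTGF with CYR61 was 0.09 in monoculture and 0.17 in coculture, where CYR61 was the gene most like CTGF. The value for CTGF with RCAN1 was 0.10 in monoculture and 0.03 in coculture, and that for SERPINE2 with WNT5A 0.15 and 0.05. Also lower in coculture were INHBA with CENPE and HMGB2, SERPINE2 with HSP90B1, and THBS1 with IL6 and RCAN1. So were CTGF with THBS1 and CYR61 with COL1A2. The other pairs named were not lower.

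The rest of the 2 pathways was described from lists that cover each step. Among other YAP targets, more genes passed the limit downward than upward in HS-5 cells of the coculture. Of 16 that could be counted, 6 were lower, against 9.66% of all genes, none was higher, against 7.78%, and 10 did not pass. The log2 ratio was above 0 for 1 of the 16, and the median was -0.52, against -0.03 for all genes. F3, which encodes tissue factor, had 81.2 CPM alone and 38.1 CPM in coculture (ratio 0.469, 0.372 to 0.585). AMOTL2, an angiomotin that binds YAP, had 157 and 76.1 CPM (ratio 0.484, 0.412 to 0.566). The further ones past the limit were CRIM1, AJUBA, AXL and RBMS3. PTPN14 and MYOF, the 2 highest ratios among abundant genes of this list, had log2 ratios of -0.15 and -0.07.

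Ratios in HS-5 cells were lower for longer transcripts, with a Spearman correlation of -0.27 over 8700 genes. With that trend removed the median of the YAP targets was -0.39.

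Of the Hippo kinases, YAP, TAZ and the TEADs, 3 of 16 were lower and none was higher, against 9.66% and 7.78% of all genes, with a median log2 ratio of -0.21. NF2, an upstream activator of the Hippo kinases, had 132 CPM alone and 72.9 CPM in coculture (ratio 0.551, 0.466 to 0.649), and TEAD3 and VGLL3 were the other two. The co-activators were near 0, at log2 ratios of 0.02 for YAP1 and 0.10 for WWTR1, which encodes TAZ. SAV1, a scaffold of the Hippo kinases, had a log2 ratio of -0.45 and MOB1A, a kinase co-activator, 0.23.

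Of 13 other TGF-β targets that could be counted, 2 were higher and 1 was lower, beside 7.78% and 9.66% of all genes, with a median of 0.25. IL11, a cytokine, was lower, with 51.0 CPM alone and 24.7 CPM in coculture (ratio 0.485, 0.362 to 0.639), and BHLHE40 and ID3 were higher. ID3, an inhibitor of helix-loop-helix factors that BMP signals induce, had 28.5 and 59.9 CPM (ratio 2.10, 1.68 to 2.63). ID1, of the same family, had a log2 ratio of 0.42. SNAI2, FN1 and TPM1 had log2 ratios of -0.43, 0.14 and -0.15.

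**Figure D3:**
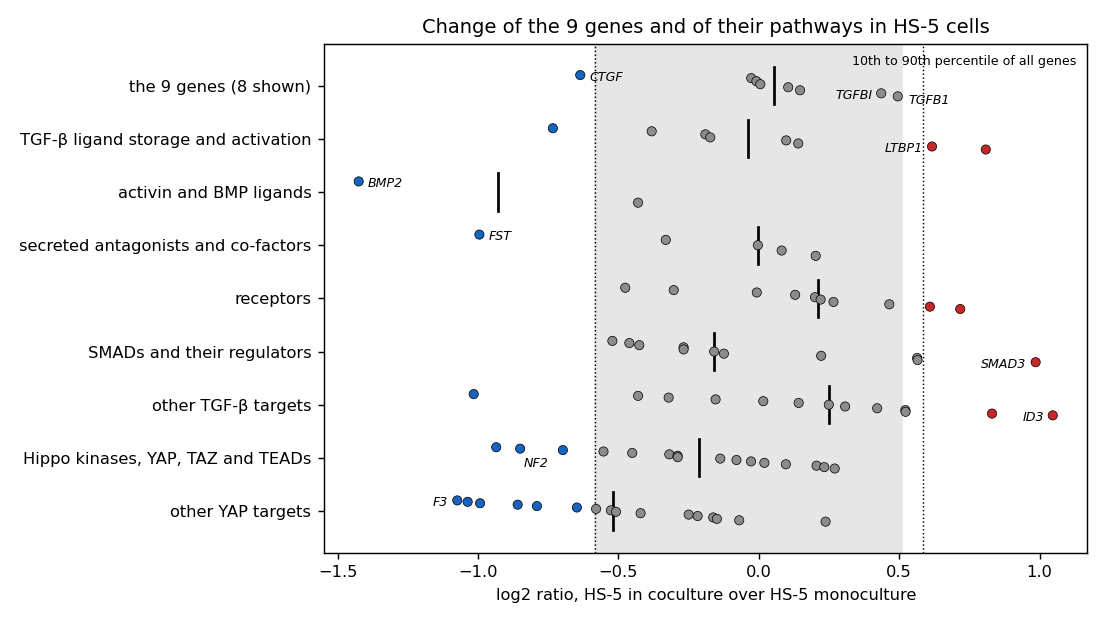
Log2 ratio of HS-5 cells in coculture over HS-5 cells in monoculture for 8 of the 9 genes and for the genes of 8 pathway lists (1 point per gene, 1 library per condition), in red where higher and in blue where lower past the 1.5-fold limit (dotted lines), with a black bar at each median and the 10th to 90th percentile of all 8809 genes in grey. Of the 9 genes CTGF lies past the limit, and the other YAP targets have the median of -0.52.

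Upstream, SMAD3, the factor that carries TGF-β and activin signals to DNA, was the only one past the limit of 11 SMADs and regulators, with 45.1 CPM alone and 90.3 CPM in coculture (ratio 2.00, 1.67 to 2.40). SMURF2, a ubiquitin ligase that acts on receptors and SMADs, had 370 and 257 CPM and stayed short of the limit at a ratio of 0.696 (0.636 to 0.760). SKIL, a repressor of SMADs, and SMAD5, which carries BMP signals, had log2 ratios of -0.27 and 0.22. The list's median was -0.16, and 7.78% of all genes were past the limit upward. Of 10 other receptors, 2 were higher, against 7.78% of all genes, and none was lower, with a median of 0.21. These were TGFBR3 (betaglycan, a co-receptor), with 30.4 and 47.0 CPM, and ACVR1B, an activin type I receptor, with 7.49 and 13.0 CPM.

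Genes of ligand storage and activation went both ways, 2 higher and 1 lower of 8, against 7.78% and 9.66% of all genes, with a median of -0.04. LTBP1, which tethers latent TGF-β to the matrix, had 101 CPM alone and 155 CPM in coculture (ratio 1.54, 1.35 to 1.75). BMP1 was also higher, and FURIN, the protease that cleaves the TGF-β precursor, was lower at 20.2 and 11.7 CPM. LTBP2 and ITGB5 had log2 ratios of -0.19 and -0.38. Of the other activin and BMP ligands, only BMP2 and GDF11 could be counted, and BMP2 was lower, with 57.1 and 20.7 CPM (ratio 0.361, 0.264 to 0.486).

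Among 5 secreted antagonists and co-factors 1 was lower and none was higher, beside 9.66% and 7.78% of all genes. FST encodes follistatin, which binds and neutralises activin. It had 176 CPM (166 to 187) alone and 87.9 CPM (76.6 to 100) in coculture, a ratio of 0.499 (0.429 to 0.578), while its target INHBA stood at a ratio of 1.08. GREM1, a BMP antagonist, had 1987 and 1579 CPM, a ratio of 0.795 that did not pass the limit. FSTL1 and CD109 had log2 ratios of 0.00 and 0.20.

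In MM.1S cells the coculture gave a different set of values, with few UMIs. Here 32.4% of all 7834 genes passed the limit upward and 13% downward, and the median log2 ratio of all genes was 0.24, so a member past the limit stands against a high background. Only 3 of the 9 genes could be counted, and TGFB1 and INHBA passed the limit upward. TGFB1 had 6.81 CPM (5.32 to 8.58, 71 UMIs) alone and 30.9 CPM (22.2 to 42.0, 41 UMIs) in coculture, a ratio of 4.55 (3.02 to 6.77). INHBA had 3.45 CPM (36 UMIs) and 21.9 CPM (29 UMIs), a ratio of 6.34 (3.75 to 10.6). SERPINE2 had 36.0 and 45.3 CPM, a ratio of 1.26 (0.940 to 1.65). The other 6 genes had between 1 and 8 UMIs in the MM.1S cells of the coculture.

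UMIs of HS-5-specific genes were also found in the MM.1S cells of the coculture, at an amount that HS-5 RNA would give at 1.49% of their UMIs. Whether free RNA in the droplets, doublets below the limit or low expression gave them was not tested. The 116 most abundant of these genes stood in MM.1S cells at a median of 2.12% of their HS-5 level, with a 10th to 90th percentile of 0.80 to 4.94%. The INHBA level in MM.1S cells of the coculture was 1.69% (1.13 to 2.43) of that in HS-5 cells, within this range. TGFBI stood at 1.74%, TGFBR2 at 1.61%, THBS1 at 0.888%, CTGF at 0.756% and CYR61 at 0.671%, the last 2 just below that range. SERPINE2, which MM.1S cells also hold when alone, stood at 5.15% (3.92 to 6.65). TGFB1 differed, since its level in MM.1S cells was 111% (73.3 to 165) of the HS-5 level. With 1.49% of the HS-5 level subtracted, MM.1S cells of the coculture kept 30.5 CPM of TGFB1 and 2.62 CPM of INHBA. The same subtraction gave negative values for THBS1, CTGF and CYR61, at -3.56, -1.46 and -7.33 CPM. A single share thus takes away too much for some genes, and the INHBA remainder is uncertain.

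**Figure D4:**
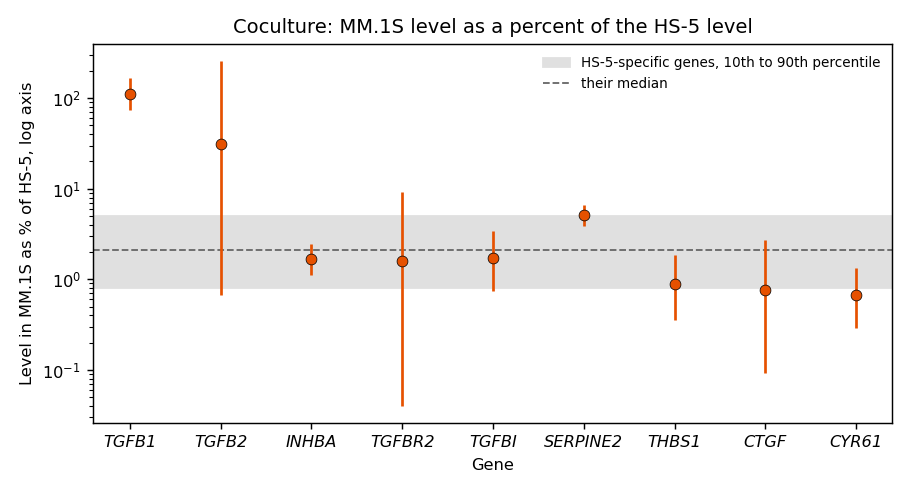
Level of each of the 9 genes in MM.1S cells of the coculture as a percent of its level in HS-5 cells of the coculture, on a log axis, with bars for the 95% exact interval, beside the 10th to 90th percentile (grey) and median (dashed) of 116 HS-5-specific genes. TGFB1 stands apart at 111%, INHBA, TGFBI and TGFBR2 lie within the grey range, and TGFB2 rests on 1 UMI.

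At 1000 UMIs per cell a TGFB1 UMI was found in 0.749% (0.502 to 1.07) of 3870 MM.1S cells alone and in 2.11% (0.916 to 4.12) of 379 in coculture, and these intervals overlap. At 500 UMIs per cell, which more cells reach, the TGFB1 shares were 0.405% (0.232 to 0.657) of 3947 and 1.42% (0.831 to 2.27) of 1195, and these do not overlap. TGFB1 lies on chromosome 19 (41301587 to 41353911, minus strand, GRCh38 in GENCODE release 29) and overlaps HNRNPUL1, CCDC97 and TMEM91 on the other strand. Whether strand was used in counting is not given in the sources used here, so reads of such partners may not be told apart. Out of 10433017 UMIs in MM.1S cells alone and 1325527 in coculture, HNRNPUL1 had 655 and 76, and CCDC97 60 and 9. The MM.1S cells of the coculture were also shallower than those of the monoculture, and the part of depth in the TGFB1 difference was not tested.

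Other members lie near other annotated genes as well. CTGF is on chromosome 6 (131948176 to 131951373, minus strand), where an overlapping antisense transcript had 1 UMI in HS-5 monoculture and 0 in coculture. INHBA is on chromosome 7 (41667168 to 41705834, minus strand), and its antisense neighbour INHBA-AS1 had 23 and 9 UMIs in HS-5 cells, against 7402 and 3200 for INHBA. CYR61 (chromosome 1, 85580761 to 85583962), TGFBI (chromosome 5, 136028895 to 136063818) and SERPINE2 (chromosome 2, 223975112 to 224039319) overlap no other annotated gene. THBS1 (chromosome 15, 39581079 to 39599466) overlaps FSIP1 and 2 unnamed transcripts, none above 43 UMIs in HS-5 cells.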

How the data were processed

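For each of the 3 libraries the authors deposited whole-number UMI counts, by gene and by cell barcode, that had not been normalized. Per the labels, the processing notes name Cell Ranger 3.0.2, UMI-tools 1.0.0, STAR 2.5.3a, Subread, featureCounts 1.6.4 and SAMtools 1.9 and the build GRCh38 (hg38), with no role or order, and the annotation and strand setting are not given in the sources used here.

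Barcodes with fewer than 200 genes were dropped. Mixed cells were assigned by 137 HS-5-specific and 47 MM.1S-specific genes (50-fold, at least 100 CPM). Cells whose HS-5 share of these UMIs was above 0.8 were HS-5, those below 0.2 were MM.1S, and those between were left out as doublets. Of the monoculture cells, 3731 of 3732 HS-5 and 3947 of 3947 MM.1S cells came out as their own line. The UMIs of a line's cells in a library were added up and expressed as CPM, and log2 ratios have a pseudocount of 1 CPM. The libraries held 10433182 (MM.1S), 6143448 (HS-5) and 3981392 (coculture) UMIs. A count of 3 equals 2.26 CPM in the MM.1S cells of the coculture and 1.21 CPM in its HS-5 cells.

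With 1 library per condition there is no test and no p-value. Intervals are exact (Poisson for levels, conditional binomial for ratios, Clopper-Pearson for shares, scipy 1.17.1) and cover counting error only. The ratios, the calls and the estimate of HS-5 RNA in MM.1S cells were tried on simulated counts. Those counts held counting error only, with no spread between cells or libraries. Of each pathway list the 2 highest and 2 lowest ratios in HS-5 are named where the gene averages 50 CPM or more, as are genes counted in words. Genes named beside these (BMP2, JUN, FOS, ID3, YAP1 and other low or central genes of the lists) were chosen after their values were seen. Coordinates and lengths of transcripts were taken from GENCODE release 29, which holds 97.3% of the symbols. The 9 genes and the lists were chosen with earlier results of these data known. Alternatives covered cells kept, scaling, pseudocount, minimum level, split, subtraction of the HS-5 share in MM.1S cells (and the reverse), mitotic cells, transcript length and depth. One listed gene is not reported here and was left out of the list counts and of the most similar genes.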

Additional observations from a re-analysis of the deposited data

Results flagged for a closer look

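In 7 genes of the lists, marker lists included, both lines passed the 1.5-fold limit in opposite directions between monoculture and coculture. None of the 9 genes did. The share of all genes with such opposed changes was not counted, so the 7 cannot be set against a background. Of all genes that could be counted, 7.78% were higher and 9.66% lower in HS-5, and 32.4% higher and 13% lower in MM.1S. The difference between the lines was not tested, since each line has 1 library per condition. The log2 ratio of ID3 was 1.05 in HS-5 cells and -3.87 in MM.1S cells, where it rests on 258 UMIs alone and 1 UMI in coculture. For NF2 it was -0.85 in HS-5 and 0.85 in MM.1S, and for CRIM1 -0.99 and 0.88. FOS had -3.04 and 0.59, KLF6 -0.69 and 0.88, and the proliferation marker MKI67 -0.68 and 1.04. For JCHAIN, the immunoglobulin joining chain that MM.1S cells hold, it was 3.75 in HS-5, from 6 UMIs alone and 63 in coculture, and -0.69 in MM.1S. In the coculture JCHAIN had 25.5 CPM in HS-5 cells and 4140 CPM in MM.1S cells. MM.1S-specific genes were found in HS-5 cells of the coculture at an amount that MM.1S RNA would give at 0.633% of their UMIs. The part of such RNA in the HS-5 value of JCHAIN was not tested. Longer transcripts had lower ratios in HS-5 (Spearman correlation -0.27) and higher ratios in MM.1S (0.28), and the part of transcript length in these values was not tested.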

How the results depend on the processing

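No paired analysis was possible because each condition is 1 library and the replicate number is only a name. Over 17 alternatives the log2 ratio of CTGF in HS-5 cells lay between -0.71 and -0.51 and that of TGFBI between 0.33 and 0.52. Those of TGFB1, INHBA, SERPINE2, THBS1, CYR61 and TGFBR2 crossed 0, with TGFB1 between -0.44 and 0.78. Without cells of 2 or more mitosis UMIs, 0 of the 9 genes was past the limit downward in HS-5 and TGFB1 stood at -0.44. With cells of at least 1000 UMIs, an alternative chosen after seeing the data, 1 gene (TGFB1, 0.78) was past it upward in HS-5 and 1 in MM.1S. The other YAP targets lower in HS-5 numbered 10 with 200 to 2500 genes and under 5% mitochondrial UMIs and 3 with a minimum of 50 CPM, and 1 was higher with a minimum of 1 CPM. In MM.1S cells the genes past the limit upward numbered 5 with a minimum of 1 CPM, 0 with 50 CPM and 1 with the estimated HS-5 share subtracted, where INHBA turned to -0.28. The log2 ratio of TGFB1 in MM.1S lay between 1.28 and 2.17. The causes were not tested.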
